A study of Mus musculus with 4 samples.

Results

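The genes of multiciliogenesis and the motile cilium followed here across whole embryonic mouse heads were Cdc20b, Ccno, Deup1, Mcidas, Gmnc, Foxj1, Dynlrb2, Lrrc23, Ccdc153 and Tmem212. They were taken by gene symbol, and all 10 were present among the 19465 genes of the spatial transcriptomic tables. The embryos of both groups were wild type (C57BL/6J) and the groups differed in stage alone as labelled, and mid-palatal coronal sections of the head from formalin-fixed paraffin blocks, E14.5 or E15.5, had been profiled on Visium slides, on which each barcoded spot collects transcripts of several neighbouring cells. Each stage held 2 capture areas, and each area was 1 library: replicate 1 covered 1 section, and replicates 2 to 4 were 3 sections on a shared area, named here A, B and C because the labels do not say which section is which replicate. Sections of 1 area share a library and were not counted as replicates here, except in alternatives named as such. The study states that biological replicates were used throughout, and the labels number the sections as replicates, but neither ties a section to an embryo. The p-values below therefore measure only the spread between these capture areas. Where an alternative took sections as samples or pairs, they measure the spread between sections, some of which share a library.

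The 4 areas held 6357 tissue spots. The E14.5 replicate 1 library was shallow, with 15438992 unique molecular identifiers (UMIs, each a distinct captured transcript) and a median of 6752 per spot, against 67344393 to 109127953 UMIs in the other libraries. Within the E14.5 area of replicates 2 to 4, section A was also shallow, with a median of 10038 UMIs per spot against 59411 and 65616 in sections B and C. The 10 members together gave 15297 UMIs. All levels are CPM, the UMIs of a gene scaled to 1000000 UMIs of the spots named, and intervals are exact 95% Poisson or binomial intervals that cover counting error only. A spot mixes cells, so fewer cells of a type and less RNA per cell cannot be told apart in any of the values below.

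Multiciliated cells carry many motile cilia, and they make the basal bodies for them by amplifying centrioles, in large part on a transient structure called the deuterosome. In the accepted order, Gmnc starts the programme and induces Mcidas. Both are geminin relatives that act with E2F factors, and they switch on Ccno, Deup1, Cdc20b and Foxj1. Deup1 is the structural protein of the deuterosome and a paralog of Cep63, Ccno is a cyclin-like protein needed for centriole amplification, and Cdc20b, a relative of the mitotic regulator Cdc20, is needed for the release of new centrioles from deuterosomes. Foxj1, with the RFX factors, turns on the genes of the motile axoneme. Among those, Dynlrb2 is a dynein light chain, Lrrc23 is a radial spoke protein and Ccdc153 is a protein of the dynein regulatory complex, while Tmem212 is a membrane protein known mainly as a marker of ciliated cells. In the head, motile cilia line the respiratory part of the nasal cavity, the choroid plexus and, after birth, the ependyma of the brain ventricles. Olfactory neurons also bear several cilia, which are immotile in the mouse.

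Ccno, Mcidas and Cdc20b lie side by side. In the GENCODE annotation of GRCm38 (mm10), on the plus strand of chromosome 13, Ccno (ENSMUSG00000042417) spans chr13:112987802-112990777, Mcidas (ENSMUSG00000074651) chr13:112993845-113000394 and Cdc20b (ENSMUSG00000078926) chr13:113035111-113091195. The trio covers 103.4 kb, with gaps of 3.067 kb and 34.72 kb between neighbours, and Mir449c, Mir449b and Mir449a lie inside Cdc20b. The other members lie apart: Deup1 (ENSMUSG00000039977) at chr9:15559864-15627933 on the minus strand and Ccdc153 (ENSMUSG00000070306) at chr9:44240676-44247306 on the plus strand, Gmnc (ENSMUSG00000068428) at chr16:26913553-26991652, Foxj1 (ENSMUSG00000034227) at chr11:116330704-116335399, Lrrc23 (ENSMUSG00000030125) at chr6:124769863-124779727 and Tmem212 (ENSMUSG00000043164) at chr3:27866066-27896368 on the minus strand, and Dynlrb2 (ENSMUSG00000034467) at chr8:116504974-116515915 on the plus strand.

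The stretches just before the start sites are shown for the trio and for 3 axonemal members, all called higher in airway spots below, so that the letters GTTGCC can be seen. That run is the core of the X-box bound by RFX factors, and it is printed in capitals here (GGCAAC on the other strand). Each line runs 5′ to 3′ in the direction of the gene, from RefSeq windows of build GRCm38.p6, and holds no exon of its gene.
Ccno: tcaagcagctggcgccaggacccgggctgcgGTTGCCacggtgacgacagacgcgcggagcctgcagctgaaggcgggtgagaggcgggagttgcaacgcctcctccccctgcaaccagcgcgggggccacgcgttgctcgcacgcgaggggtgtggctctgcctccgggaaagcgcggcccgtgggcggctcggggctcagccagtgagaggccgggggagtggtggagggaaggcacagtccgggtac
Mcidas: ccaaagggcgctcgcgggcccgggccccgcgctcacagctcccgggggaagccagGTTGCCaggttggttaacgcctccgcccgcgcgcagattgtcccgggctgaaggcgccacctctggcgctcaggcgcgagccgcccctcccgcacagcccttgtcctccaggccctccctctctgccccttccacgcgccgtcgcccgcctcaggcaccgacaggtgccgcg
Cdc20b: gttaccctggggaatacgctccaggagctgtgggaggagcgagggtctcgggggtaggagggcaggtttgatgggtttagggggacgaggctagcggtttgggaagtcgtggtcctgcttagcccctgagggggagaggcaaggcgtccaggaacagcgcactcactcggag
Dynlrb2: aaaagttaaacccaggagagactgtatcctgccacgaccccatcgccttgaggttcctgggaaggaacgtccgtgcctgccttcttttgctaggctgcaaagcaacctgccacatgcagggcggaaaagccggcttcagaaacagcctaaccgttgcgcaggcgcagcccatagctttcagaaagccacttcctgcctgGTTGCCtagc
Lrrc23: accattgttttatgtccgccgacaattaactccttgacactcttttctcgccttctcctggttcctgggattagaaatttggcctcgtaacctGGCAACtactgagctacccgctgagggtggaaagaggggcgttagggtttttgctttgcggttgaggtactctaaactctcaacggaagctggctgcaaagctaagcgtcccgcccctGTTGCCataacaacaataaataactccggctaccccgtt
Ccdc153: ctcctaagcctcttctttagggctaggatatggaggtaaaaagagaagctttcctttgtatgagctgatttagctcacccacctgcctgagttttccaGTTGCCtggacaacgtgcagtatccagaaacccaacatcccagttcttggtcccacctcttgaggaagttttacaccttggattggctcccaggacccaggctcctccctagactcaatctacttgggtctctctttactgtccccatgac
The Cdc20b line lies inside the GENCODE gene, between exons of its annotated transcripts, and the other 5 lie before the gene's start. Their positions are chr13:112987552-112987801 for Ccno, chr13:112993618-112993844 for Mcidas, chr13:113035207-113035378 for Cdc20b, chr8:116504765-116504973 for Dynlrb2, chr6:124779728-124779977 (minus strand) for Lrrc23 and chr9:44240427-44240675 for Ccdc153. The first base of the core site stood 219 bases before the RefSeq start in Ccno, 195 in Mcidas, 51 in Dynlrb2 and 152 in Ccdc153, and Lrrc23 held copies at 157 and 39 bases. Over RefSeq windows of 300 bases (250 before and 50 after the start), which 9 of the 10 members had, 6 of the 9 held GTTGCC on either strand: Ccno, Deup1, Mcidas, Dynlrb2, Lrrc23 and Ccdc153. Of all 32851 RefSeq windows 12.5% held it. For this motif and those below, the 9 members had 11 windows and were counted by gene, with a match in any window enough. The share of all windows is per window, so the measures are not quite alike. A forkhead motif, TGTTTAC, occurred in 0 of the 9 and in 3.65% of all windows, an E2F motif, TTTCCCGC, in 0 and 1.07%, and a MYB motif, AACGG, in 2 (Dynlrb2 and Lrrc23) and 17.4%. The RFX and MYB letters can overlap by 3, and a match describes letters only.

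To place the members, spots were put into tissue classes by marker genes that hold no member and no cilia gene, and a spot could be in more than one class. The airway class, marked by Krt7, Foxa1, Ehf, Elf3, Lypd2, Cyp2f2 and others, held 6 spots in E14.5 replicate 1, 83 in the other E14.5 area, 27 in E15.5 replicate 1 and 88 in the other E15.5 area. Of its 14 markers, 10, 13, 12 and 13 were higher in the class than outside it in these areas, and the secretory marker Tff3 was at 0 in the class in all 4. The choroid plexus class, marked by Ttr, Clic6, Folr1 and others, held 61 spots in the E14.5 area of replicates 2 to 4 and 9 in the E15.5 area of replicates 2 to 4, with none in either replicate 1 area. The olfactory class held 25, 86, 28 and 63 spots, and the radial glia class of the ventricular wall held 42, 100, 55 and 50. Classes were not pure: 23 of the 83 E14.5 airway spots and 17 of the 88 E15.5 airway spots were also in the olfactory class, and 34 of the 61 E14.5 choroid plexus spots were also in the radial glia class.

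The E15.5 choroid plexus class needs a reservation. Its 9 spots lay in 1 patch of section C that spanned 4 array rows, and 3 of them were also in the stratified epithelium class. Ttr, the transthyretin gene that choroid plexus makes in bulk, was at 17834 CPM there against 31619 CPM at E14.5, so the patch had the leading marker, but only 7 of 11 markers were higher in it and Kcnj13 and Prlr were at 0. The epidermal gene Krtdap stood at 644 CPM in the patch against 5.35 CPM in the E14.5 class, and section C held 0 spots of the neuron class. Values from it are given beside those of E14.5 and no statement rests on it alone.

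**Figure D1:**
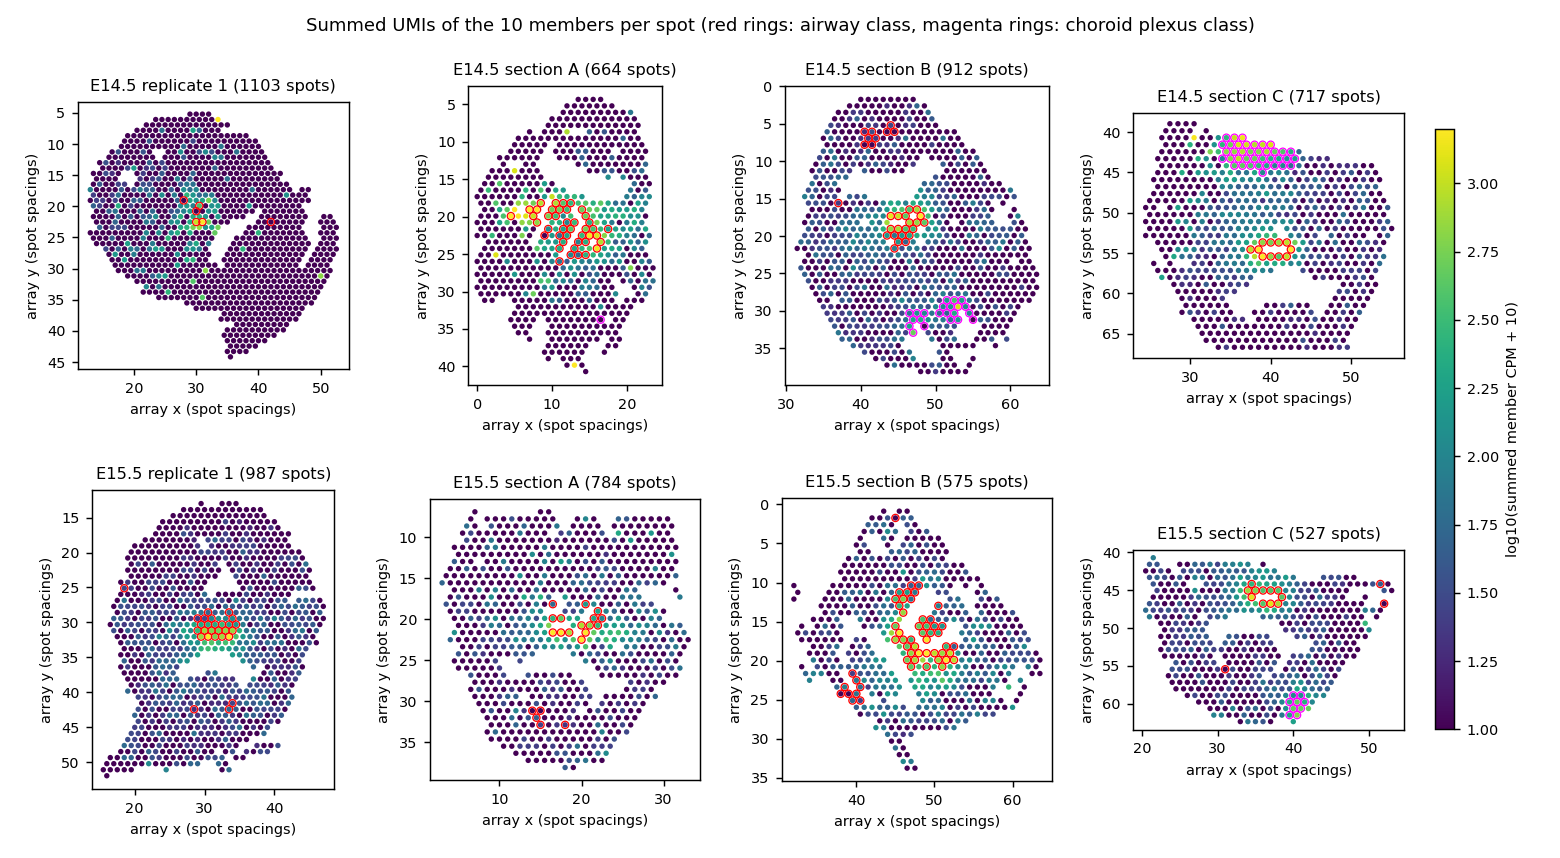
Each spot of the 8 sections is drawn at its array position (x and y in spot spacings) and coloured by log10 of the summed CPM of the 10 members plus 10, with red rings around airway class spots and magenta rings around choroid plexus class spots. The bright spots gather in and around airway class spots in every section and, in E14.5 section C, also in the choroid plexus patch, where the 10 members summed to 542.8 CPM.

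The airway class held the largest share of what was detected in any of these classes. Over all areas, 37.9% of the members' 15297 UMIs came from airway class spots, which held 4.03% of all UMIs, and a further 13.9% came from spots touching them. Choroid plexus class spots gave 14.5%, olfactory class spots that neither were in nor touched these classes 1.99%, and radial glia class spots apart from all of them 1.43%. The spots of no such class, with 78.5% of all UMIs, gave 27.4%. The share differed by gene. Ccdc153 and Mcidas had 52.4% and 48.1% of their UMIs in airway spots, Foxj1 had 33.0% there and 35.6% elsewhere, and Gmnc, the initiator, had only 17.0% in airway spots against 30.9% in choroid plexus spots.

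Of Cdc20b, Deup1, Mcidas, Ccno and Gmnc, Deup1 stood highest and Gmnc lowest in the airway class of every area. Cdc20b stood at 50.1 CPM in E14.5 replicate 1 (3 UMIs), 54.8 in E14.5 replicates 2 to 4 (244 UMIs), 46.1 in E15.5 replicate 1 (99 UMIs) and 75.9 in E15.5 replicates 2 to 4 (354 UMIs). Deup1 stood at 100.3, 122.2, 81.5 and 99.0 CPM in the same order, on 6, 544, 175 and 462 UMIs. Mcidas stood at 16.7, 23.1, 21.0 and 41.1 CPM, on 1, 103, 45 and 192 UMIs. For each of the 3 the airway values lay above every olfactory, radial glia, bone and muscle value of any area. Ccno was the most even, at 16.7, 19.3, 22.8 and 19.7 CPM (mean 19.6 ± 2.5, SD, n = 4 areas). Gmnc was at 0 UMIs in E14.5 replicate 1, where 3 UMIs would have been 50.1 CPM, and at 5.4, 5.1 and 7.3 CPM in the other areas on 24, 11 and 34 UMIs. The E14.5 replicate 1 values rest on 59833 UMIs of 6 spots, so a member at 1 to 6 UMIs there was barely resolved.

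Foxj1 and the axonemal members followed. Foxj1 stood at 33.4, 33.9, 48.9 and 53.1 CPM in the airway class, with both E15.5 areas above both E14.5 areas. The value of E14.5 replicate 1 was 2 UMIs. By section the stages overlapped, as E14.5 section A stood above E15.5 section C, which was at 38.4 CPM. Dynlrb2 stood at 100.3, 110.3, 78.7 and 98.4 CPM and Lrrc23 at 16.7, 117.7, 72.2 and 88.5 CPM, the low Lrrc23 value being 1 UMI in E14.5 replicate 1. Ccdc153 stood at 16.7, 39.1, 14.4 and 32.6 CPM, so the replicate 1 areas of both stages were lower than the areas of replicates 2 to 4. Tmem212 stood at 33.4, 19.1, 10.7 and 16.5 CPM, the highest value being 2 UMIs.

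Against all other spots of the same areas, all 10 members rose in the airway class. The test was edgeR's quasi-likelihood test on counts summed per area and class, with the area as a block and Benjamini-Hochberg adjustment over all genes, and an adjusted p under 0.1 was called. Of 14138 genes tested 32.2% were called, and 15% were called higher. Ccdc153 had the largest log2 fold change, 4.59 (SE 0.232, adjusted p = 3.61e-08), followed by Tmem212 with 4.34 (SE 0.259, adjusted p = 1.47e-07), Deup1 with 4.32 (SE 0.164, adjusted p = 2.83e-09), Mcidas with 4.28, Ccno with 4.18 and Cdc20b with 4.10 (SE 0.193, adjusted p = 1.9e-08). Dynlrb2 had 3.88, Foxj1 3.48 and Lrrc23 3.33. Gmnc had the smallest change, 2.46 (SE 0.426, adjusted p = 0.000776). All 10 were also called when any of the 4 areas was left out. The members' median log2 fold change was 4.14, against -0.03 over all genes tested.

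**Figure D2:**
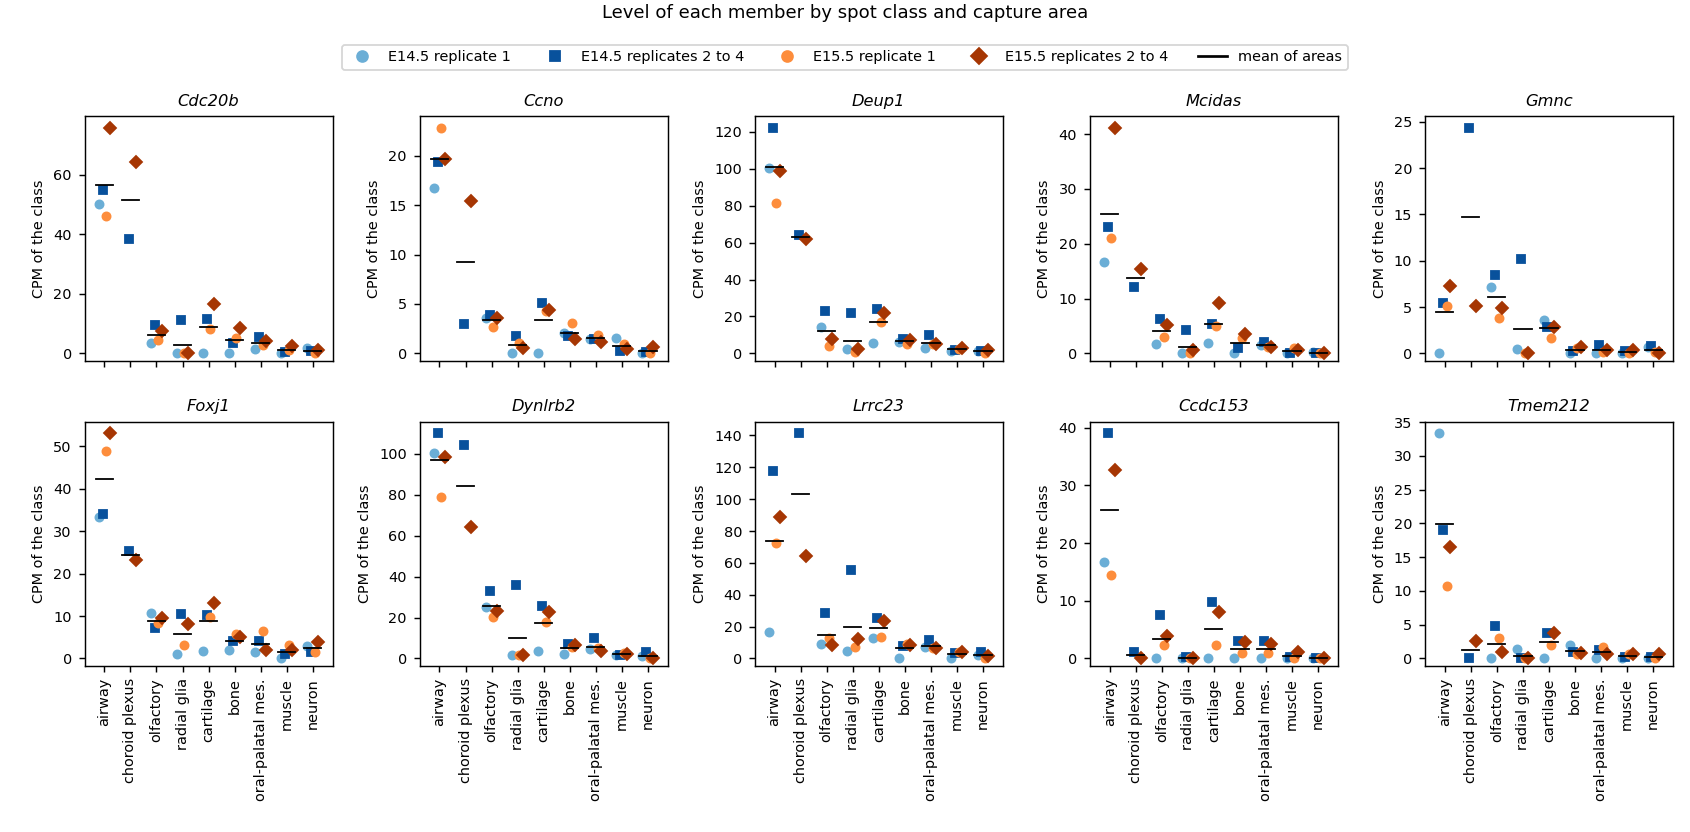
Each panel gives the CPM of 1 member (y axis) in 9 tissue classes (x axis), with 1 point per capture area and a black bar for the mean of areas that held at least 5 spots of the class. The mean of the airway areas is the highest for 8 members, of which Cdc20b and Dynlrb2 have a choroid plexus point within the range of the airway points, and for Gmnc the E14.5 choroid plexus point at 24.4 CPM stands above all others.

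Sections differed within the class. The summed members stood at 423.4 CPM in E14.5 section A, 387.9 in section B and 1083.8 in section C, and at 552.5, 516.1 and 566.1 CPM in the 3 E15.5 sections. In E14.5 section C, 11 airway spots gave Deup1 at 260.7 CPM, Dynlrb2 at 232.2 CPM and Lrrc23 at 274.4 CPM, each above every other section, while Cdc20b at 77.0 and Ccno at 21.1 CPM were within the range of the others. Ccdc153 ranged from 8 UMIs (7.2 CPM) in E14.5 section A to 81 UMIs (33.9 CPM) in section B and 85 UMIs (89.7 CPM) in section C. In the same section A, Foxj1 stood at 55.6 CPM and Ccno at 35.0 CPM, the highest Ccno value of the 8 sections. Section A, which had the least Ccdc153, was also the shallow section of its area.

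The airway class was made of separate patches, and they were not alike. Joining airway spots at 1 spacing from each other gave 15 patches of at least 4 spots, with 171 spots, and 24 smaller ones with 33 spots. In 12 of the 15, with 152 spots, the summed members stood between 184.7 and 1156 CPM. The other 3 patches, which were singled out after their values were seen and were not tested, held few members: 6 spots of E14.5 section B had 5 member UMIs (9.23 CPM, interval 3.00 to 21.5), 4 spots of E15.5 section A had 3 (11.7 CPM, interval 2.40 to 34.1) and 9 spots of E15.5 section B had 17 (34.6 CPM, interval 20.1 to 55.4). They held 541797, 257310 and 491731 UMIs, and the patches with high values held from 59690 to 1762216. Their summed airway markers stood at 939, 882 and 2001 CPM, against 869 to 1417 CPM in the other 12. Single markers differed, however. Foxa1 stood at 11.1, 7.77 and 20.3 CPM in the 3 patches and between 65.5 and 142 CPM in the 12, while the keratin gene Krt7 stood at 293, 237 and 468 CPM against 69.2 to 184 CPM. Sec14l3, at 0, 0 and 4.07 CPM, overlapped with the range of 0 to 84.4 CPM in the 12. On the map of spots these patches lay apart from the brighter ones of the same section. Some smaller patches were alike, such as 2 spots of E15.5 replicate 1 with summed members at 27.5 CPM, Foxa1 at 13.7 CPM and Krt7 at 462 CPM. Which epithelium such patches are was not determined, so the airway class may not be nasal airway epithelium throughout.

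Levels fell steeply with distance from the airway class. In E14.5 replicates 2 to 4 the summed members stood at 544.9 CPM in airway spots, 163.7 CPM at 1 spot spacing, 53.1 CPM at 2, 32.1 CPM at 3 and 9.2 CPM beyond 10 spacings, with olfactory class spots and spots within 2 spacings of the choroid plexus class left out beyond the first step. In E15.5 replicates 2 to 4 the same steps gave 532.1, 129.6, 52.3, 33.6 and 11.5 CPM. E15.5 replicate 1 went from 401.5 CPM to 7.1 CPM, and E14.5 replicate 1 from 384.4 CPM to 10.3 CPM. In each of the 4 areas the level was lower at every step outward.

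**Figure D3:**
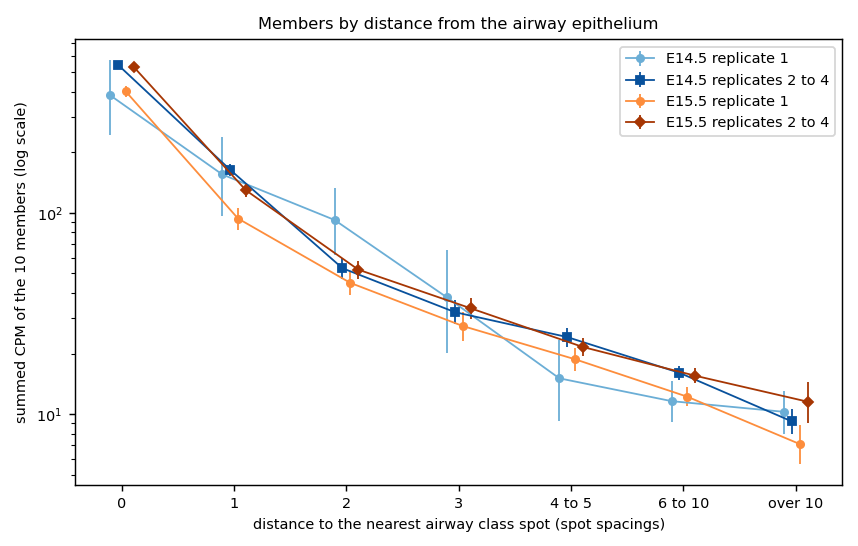
The summed CPM of the 10 members (y axis, log scale) is drawn against the distance to the nearest airway class spot (x axis, in spot spacings), with 1 line per capture area and exact 95% Poisson intervals as bars. In every area the level falls by each step, from between 384.4 and 544.9 CPM in airway spots to between 7.1 and 11.5 CPM beyond 10 spacings.

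Choroid plexus carried a partial set. In the 61 E14.5 spots Dynlrb2 stood at 104.4 CPM (527 UMIs), Lrrc23 at 141.6 CPM (715 UMIs), Deup1 at 64.0 CPM (323 UMIs) and Cdc20b at 38.6 CPM (195 UMIs), and in the 9 E15.5 spots at 64.4, 64.4, 61.9 and 64.4 CPM. Gmnc stood at 24.4 CPM (123 UMIs), its highest value in any class of any area, Foxj1 at 25.4 CPM (128 UMIs) and Mcidas at 12.1 CPM (61 UMIs). Ccdc153, by contrast, gave 6 UMIs (1.2 CPM) and Tmem212 gave 0, where 3 UMIs would have been 0.59 CPM. In the E15.5 patch Gmnc had 2 UMIs (5.2 CPM), Ccdc153 0 and Tmem212 1.

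The choroid plexus of both E14.5 sections showed the pattern at different heights. In section B, 22 spots gave 266 summed member UMIs (158.3 CPM), with Gmnc at 16.7 CPM, and in section C, 38 spots gave 1827 (542.8 CPM), with Gmnc at 28.2 CPM. Ccdc153 gave 0 UMIs in section B and 6 in section C, and Tmem212 gave 0 in both.

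Against the rest of the same areas, with 2 areas only, 4 members rose in the choroid plexus class: Lrrc23 by a log2 fold change of 3.06 (SE 0.366, adjusted p = 0.00657), Dynlrb2 by 3.04 (SE 0.366, adjusted p = 0.00657), Cdc20b by 3.12 (SE 0.437, adjusted p = 0.0141) and Deup1 by 2.77 (SE 0.384, adjusted p = 0.0137). Of 14972 genes tested 1.11% were called, 0.608% higher and 0.501% lower. Gmnc had the largest value, 3.65, but with an SE of 0.835 it was not called (adjusted p = 0.122 by the same edgeR test). Foxj1 at 2.29 (adjusted p = 0.155), Mcidas at 2.49 (adjusted p = 0.247) and Ccno at 1.82 (adjusted p = 0.682) were not called either, nor were Ccdc153 at -1.55 and Tmem212 at -2.57. With a stricter class cut, and also by DESeq2, 7 members were called, Gmnc, Foxj1 and Mcidas among them. The stricter cut called 1006 of 14999 genes, 372 of them higher, and DESeq2 295 of 19086, 162 of them higher. Without the area as a block 0 members and 0 genes were called.

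Airway and choroid plexus were set side by side within the 3 sections that held at least 5 spots of both, because sections differed in level and in their share of each tissue. Ccdc153 and Tmem212 differed most in section C of both stages. Ccdc153 stood 50.3-fold higher in the airway class of E14.5 section C (interval 22.2 to 141), and at least 18.99-fold and 6.61-fold higher in E14.5 section B and E15.5 section C, taking 3 UMIs as the floor in the choroid plexus class. Tmem212 stood at least 50.9-fold and 7.03-fold higher in E14.5 sections C and B, and 8.12-fold higher in E15.5 section C (interval 1.28 to 338).

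Deup1 stood 7.25-fold higher in the airway class of E14.5 section B (interval 4.52 to 12.3), 2.89-fold in E14.5 section C (interval 2.43 to 3.43) and 1.77-fold in E15.5 section C (interval 1.12 to 2.89). Dynlrb2 had ratios of 1.505, 1.77 and 1.59 in the same order, and Lrrc23 had 1.27 (interval 0.9997 to 1.63), 1.52 and 1.93, so both had ratios above 1 in each section, and only the Lrrc23 interval in E14.5 section B reached equal levels. Ccno was at least 6.33-fold higher in E14.5 section B and 4.74-fold in E14.5 section C (interval 2.31 to 9.94), but its ratio in E15.5 section C was 1.13 (interval 0.413 to 3.55). Mcidas had 16.5 on 2 choroid plexus UMIs (interval 4.33 to 140), 1.87 (interval 1.17 to 2.93) and 2.10 (interval 0.855 to 6.22). Cdc20b and Foxj1 were higher in section B, at 6.21 and 2.92, and in E15.5 section C both intervals included equal levels. Gmnc alone was lower in the airway class of both E14.5 sections, at 0.251 (interval 0.109 to 0.533) and 0.486 (interval 0.2497 to 0.872), and its 0.451 in E15.5 section C rested on 2 UMIs in each class (interval 0.0327 to 6.22).

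Summing the sections of an area gave other ratios. Over the E14.5 area, where section A added 42 airway spots and 1 choroid plexus spot, Lrrc23 had 0.831 (interval 0.741 to 0.932), the opposite direction to sections B and C, Dynlrb2 1.06, Deup1 1.91 and Gmnc 0.221. Over the E15.5 area, Lrrc23 had 1.37, Dynlrb2 1.53, Ccno 1.27 and Gmnc 1.41 (interval 0.362 to 12.1).

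The replicate test of this contrast, on 2 areas, called 0% of 12994 genes by edgeR, with 819 at an unadjusted p under 0.05, and DESeq2 called 249. Ccdc153 had a log2 fold change of 5.10 (SE 0.765, unadjusted p = 0.00144, adjusted p = 0.263), Tmem212 had 5.80 (SE 1.65, adjusted p = 0.644) and Gmnc had -1.31 (SE 0.898, adjusted p = 0.937). For Lrrc23 and Dynlrb2 the values were -0.07 (SE 0.356) and 0.19 (SE 0.338). With the 3 sections that held both tissues as pairs, an alternative chosen after seeing the data in which sections of 1 library count as samples, Ccdc153 had 6.01 (adjusted p = 0.0123), Tmem212 6.67 (adjusted p = 0.0437) and Deup1 1.63 (adjusted p = 0.0955), and Gmnc had -1.51 (adjusted p = 0.131). In that fit Lrrc23 had 0.52 (adjusted p = 0.196) and Dynlrb2 0.61 (adjusted p = 0.141), so Lrrc23 changed sign from the fit on areas and neither was called.

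**Figure D4:**
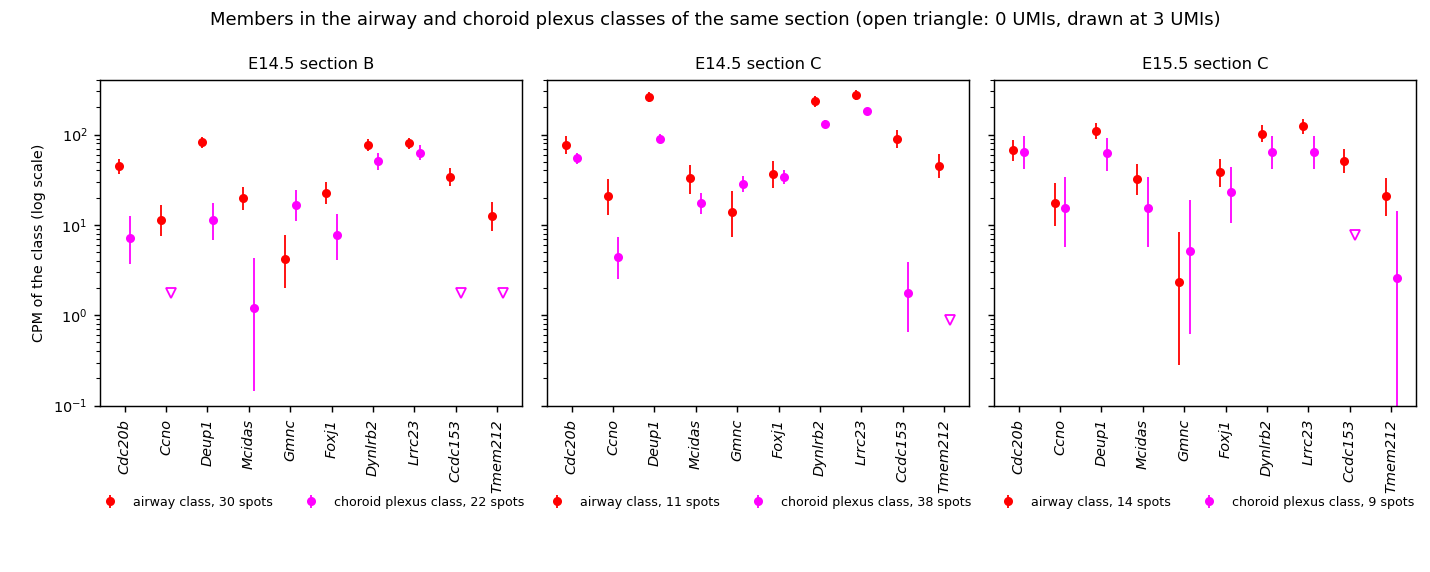
The CPM of each member (y axis, log scale) is drawn for the airway class (red) and the choroid plexus class (magenta) of the 3 sections that held both, with exact 95% Poisson intervals as bars and open triangles at the level of 3 UMIs where none was found. Ccdc153 and Tmem212 stand far apart between the tissues in E14.5 sections B and C, and Gmnc stands higher in the choroid plexus class of both.

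The olfactory class, the sensory epithelium of the nasal cavity, held lower levels, and Gmnc and Dynlrb2 changed most there. The summed members stood at 75.2, 133.0, 64.6 and 75.4 CPM in the 4 areas, and the class shared spots with the airway class. Against the rest 6 members rose, Gmnc by a log2 fold change of 2.46 (SE 0.305, adjusted p = 0.00107), Dynlrb2 by 1.56 (SE 0.266, adjusted p = 0.00451), Mcidas by 1.06, Ccno by 1.02, Ccdc153 by 1.06 and Foxj1 by 0.70 (adjusted p = 0.084). Among 14241 genes 37.4% were called and 19.4% were called higher. Cdc20b at 0.43, Deup1 at 0.47, Lrrc23 at 0.42 and Tmem212 at 1.21 were not called, with adjusted p between 0.134 and 0.367 by edgeR. Without airway and choroid plexus spots on either side, an alternative added after seeing the data, Gmnc had 3.28 (SE 0.291, adjusted p = 0.000242) and Dynlrb2 2.28 (SE 0.233, adjusted p = 0.000445), Foxj1 at 0.68 lost its call (adjusted p = 0.197), and Lrrc23 at 0.69 and Tmem212 at 1.79 gained one. That fit called 4828 of 14162 genes, 2306 of them higher. How many members were called turned on single areas: 2 without the E14.5 area of replicates 2 to 4, 3 without E15.5 replicate 1 and 8 without the E15.5 area of replicates 2 to 4. In the same order these fits called 3621 of 14023, 2974 of 14100 and 4656 of 14006 genes.

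Gmnc did not follow the other members between the airway and olfactory classes. In the olfactory class it stood at 7.2, 8.5, 3.8 and 4.9 CPM, and in the airway class at 0, 5.4, 5.1 and 7.3 CPM, so the areas overlapped. Airway against olfactory spots called 9 of the 10 members higher, with log2 fold changes from 2.44 for Dynlrb2 (SE 0.126, adjusted p = 6.87e-13) to 4.48 for Cdc20b (SE 0.231, adjusted p = 6.87e-13), and left Gmnc at -0.05 (SE 0.368, adjusted p = 0.937). Of 12350 genes 49% were called there, 24.6% higher. In the airway class Gmnc rested on 0 to 34 UMIs per area, so a small difference was not detectable at this depth.

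The ventricular wall held little of the programme. The summed members in the radial glia class stood at 11.2, 14.0 and 25.0 summed CPM in E14.5 replicate 1, E15.5 replicate 1 and the E15.5 area of replicates 2 to 4. In the E14.5 area of replicates 2 to 4 it stood at 151.8 CPM, but 34 of the choroid plexus spots were in that class too, and its spots at least 3 spacings from the airway, olfactory and choroid plexus classes stood at 18.0 CPM. Only Ccdc153 passed the test, and it fell, by 4.07 on the log2 scale (SE 0.65, adjusted p = 0.00159), in a comparison that called 63.7% of 14012 genes. Gmnc at 0.88 (adjusted p = 0.43), Foxj1 at 0.25 (adjusted p = 0.568) and Lrrc23 at 0.71 (adjusted p = 0.106) were not called. Leaving airway and choroid plexus spots out of both sides left 6 members to test. Of these Lrrc23 rose by 0.65 (SE 0.196, adjusted p = 0.0215 by edgeR) and Cdc20b, Deup1 and Ccdc153 fell. That fit called 8746 of 13784 genes, 4258 higher and 4488 lower, so calls were about as common among all genes.

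**Figure D5:**
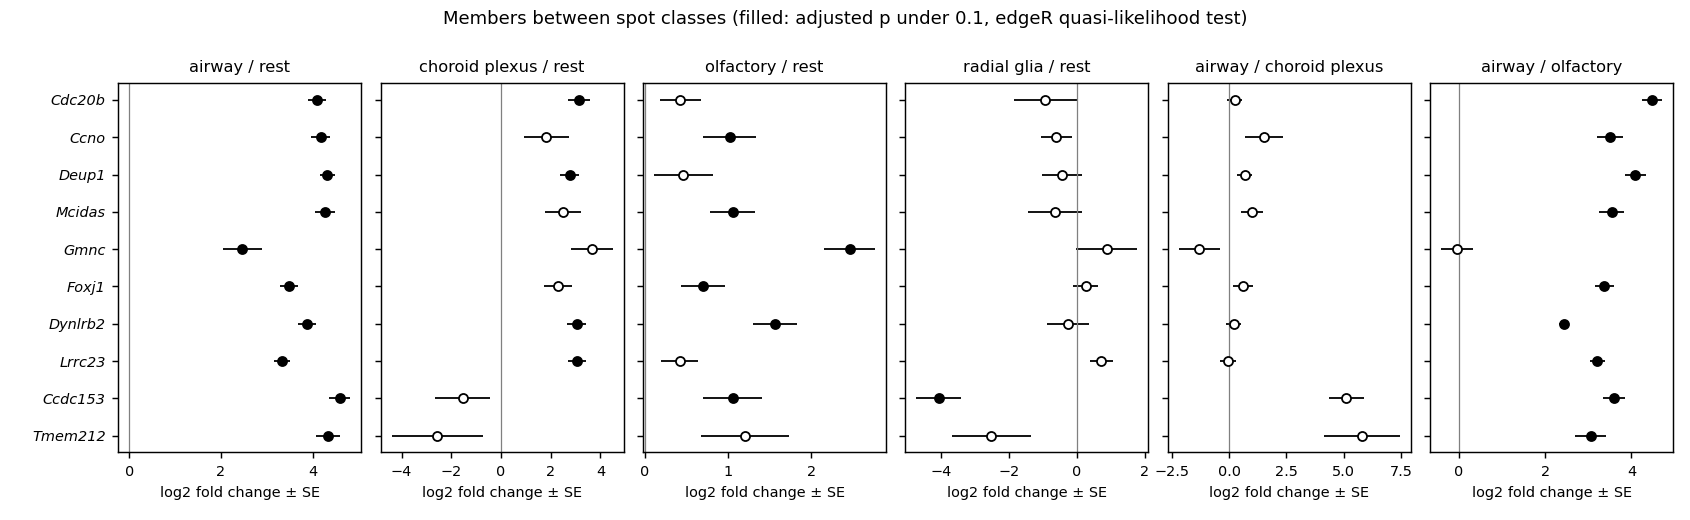
The log2 fold change of each member (x axis, ± SE from the edgeR fit) is drawn for 6 comparisons between spot classes, with filled points for an adjusted p under 0.1. All 10 points are filled for airway against the rest, 4 for choroid plexus, 6 for the olfactory class and 1 for radial glia, and none for airway against choroid plexus.

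In order of the summed members, the airway class came first with 466 ± 84.5 CPM (SD, n = 4 areas) and the choroid plexus class second with 366 ± 68.9 CPM (n = 2), and their areas overlapped. The cartilage class followed with 90.1 ± 45.6 CPM and the olfactory class with 87.0 ± 31.0 CPM (both n = 4), overlapping each other. Of the cartilage spots, 1, 13, 6 and 29 in the 4 areas were also airway spots. Cartilage spots at least 3 spacings from the airway, olfactory and choroid plexus classes stood between 0 and 28.6 CPM. The part of position in the cartilage value was not tested. Gene by gene, the airway areas lay above the choroid plexus areas without overlap for Ccno, Deup1, Mcidas, Foxj1, Ccdc153 and Tmem212, and overlapped with them for Cdc20b, Dynlrb2, Lrrc23 and Gmnc. For Ccno and Mcidas the lowest airway value, 16.7 CPM, was 1 UMI in E14.5 replicate 1. It stood against 15.5 CPM, or 6 UMIs, in the E15.5 choroid plexus patch, so for these genes the order was not resolved.

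The share of spots with any member UMI also differed between tissues, with a wider ratio once depth was made equal. Unthinned, 94.0% of E14.5 and 92.0% of E15.5 airway spots of replicates 2 to 4 held a member UMI, but so did 39.0% and 49.0% of skeletal muscle spots, a tissue that should lack these genes, at median depths of 69348 and 61323 UMIs. With every spot thinned to 3000 UMIs, the shares were 55.4% and 50% in the airway class, 53.3% and 44.4% in the choroid plexus class, 34.5% and 14.3% in the olfactory class and 2.06% and 5.17% in muscle. In the shallow E14.5 replicate 1 area 20% of the 5 airway spots left kept a member UMI, with an interval of 0.505 to 71.6%. Bone, at 9.38% and 7.93%, and oral-palatal mesenchyme, at 14.3% and 8.33%, stood between these.

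Mesenchyme was examined by its distance from the airway, olfactory and choroid plexus classes. In bone and oral-palatal mesenchyme spots touching an airway spot, the summed members stood at 146, 180 and 179 CPM in the 3 areas that could be used, against 11.4, 22.4 and 15.6 CPM at least 3 spacings away. All 9 members that could be tested rose near the airway, with log2 fold changes from 3.05 for Tmem212 (SE 0.626, adjusted p = 0.00044) to 4.17 for Mcidas (SE 0.461, adjusted p = 4.32e-09), while 17% of 13249 genes were called and 7.82% were called higher. The airway markers moved the same way, from 112, 131 and 111 CPM far from the airway class to 264, 272 and 290 CPM near it, and the stratified epithelium markers the opposite way, from 2747, 1836 and 2199.5 CPM to 1388, 534 and 800.4 CPM. The part of either in the result was not tested. E14.5 replicate 1 had 1 near spot and was left out.

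Farther from these 3 classes no excess over muscle was called. Bone spots at least 3 spacings from the airway, olfactory and choroid plexus classes stood at 13.5, 7.93, 20.7 and 14.7 summed CPM, and muscle spots at the same distance at 1.75, 8.50, 14.2 and 16.6 CPM. Of the 6 members tested, 0 were called by edgeR (43.6% of 13605 genes were), 0 had an unadjusted p under 0.05 and 0 were called by DESeq2, with log2 fold changes from -0.13 for Lrrc23 (SE 0.272) to 0.31 for Cdc20b (SE 0.401) and Foxj1 (SE 0.359). Oral-palatal mesenchyme at that distance stood at 5.26, 15.3, 24.3 and 17.1 CPM against 1.75, 8.67, 13.9 and 16.5 CPM in muscle, and 0 of 6 members were called by edgeR (40.1% of 13562 genes were), 0 had an unadjusted p under 0.05 and 0 were called by DESeq2, with log2 fold changes from 0.14 for Deup1 (SE 0.319) to 0.71 for Ccno (SE 0.546). The airway markers summed to 137, 137, 165 and 142 CPM in that mesenchyme against 47.4, 95.8, 80.6 and 92.0 CPM in that muscle. Stratified epithelium was not kept at a distance, and its markers summed to 2283, 3988, 2446 and 3077 CPM in the far oral-palatal mesenchyme against 669, 1533, 1924 and 1299.5 CPM in the muscle, with the part of either marker list not tested. Ccdc153 passed the threshold in oral-palatal mesenchyme when the filter on low counts was dropped (1.62, SE 0.639, adjusted p = 0.0703) and when either replicate 1 area was left out.

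Between stages 0 members were called by edgeR, 0 had an unadjusted p under 0.05 and 0 were called by DESeq2, both over all tissue and in the airway class. Over all tissue, Gmnc had the most negative value, a log2 fold change of -1.17 (SE 0.602, adjusted p = 0.769). It stood at 0.84 CPM (13 UMIs) in E14.5 replicate 1, 2.40 CPM (262 UMIs) in the other E14.5 area, 0.56 CPM (38 UMIs) in E15.5 replicate 1 and 1.03 CPM (92 UMIs) in the other E15.5 area, so the stages overlapped and 1 E14.5 area stood above the rest. The other 9 ranged from -0.52 for Lrrc23 (SE 0.613) to 0.60 for Ccno (SE 0.572). By edgeR 0% of 15609 genes were called, with 930 at an unadjusted p under 0.05, and DESeq2 called 37 genes. The choroid plexus lay almost wholly in E14.5 sections, and without spots within 2 spacings of it Gmnc had -0.47 (SE 0.504). Inside the airway class 0.0562% of 12451 genes were called, 0.0321% higher and 0.0241% lower at E15.5. The members' values there ran from -0.65 for Ccdc153 (SE 0.418) and -0.56 for Tmem212 (SE 0.482) to 0.44 for Mcidas (SE 0.441) and 0.55 for Foxj1 (SE 0.38). With 2 areas per stage these errors allow changes of either sign.

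The wider programme was described by gene lists, chosen with earlier results of these data known. Of 39 motile axoneme genes tested, 38 rose in the airway class and 0 fell, with a median log2 fold change of 2.88 against -0.03 over all genes. Rsph1, a radial spoke gene, had 3.11 (adjusted p = 8.46e-08) and Cfap45, whose product lies inside the axonemal microtubules, 3.02 (adjusted p = 4.21e-08), whereas Tekt2 had 0.89 and Rsph9 1.02. In the choroid plexus class 13 of 40 axoneme genes rose, Rsph1 among them at 2.58 (adjusted p = 0.0309), with a median of 2.50 against -0.08 over all genes. In the olfactory class 19 of 36 rose (median 0.78), where 19.4% of all genes were called higher. In radial glia 7 of 35 rose (median 0.38), a smaller share than the 31.2% of all genes called higher there. Between airway and olfactory spots 31 of 36 were higher in the airway class.

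Regulators outside the members had a median log2 fold change of 0.82 in the airway class, against 4.14 for the members. There 7 of 11 rose, where 15% of all genes were called higher, with Ccp110, a centriole cap protein gene, at 1.24 (adjusted p = 2.36e-05) and Myb at 1.06 (adjusted p = 8.22e-05), while E2f4 at 0.08 and Tfdp1 at 0.01, partners of Gmnc and Mcidas in the programme, were not called. In the choroid plexus class 0 of 11 were called by edgeR, with 2, Rfx3 and Foxn4, at an unadjusted p under 0.05. In radial glia 8 of 10 rose and 1 fell, Myb at 1.35 (adjusted p = 0.00992) among the risers. Centriole assembly genes rose in 7 of 11 cases in the airway class, in 9 of 11 in the olfactory class and in 9 of 11 in radial glia, beside 15%, 19.4% and 31.2% of all genes called higher in these comparisons. Cep152, which recruits Plk4 to centrioles, had 1.28 in the airway class and 2.11 in the olfactory class, and was lower in airway than in olfactory spots by 1.14 on the log2 scale (adjusted p = 4.8e-09). Primary cilium and transport genes rose in 13 of 26 cases in the airway class, in 21 of 27 in the olfactory class and in 20 of 26 in radial glia, where 2 fell, beside the same shares of all genes.

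The paralogs of the members gave other values. Cep63, the paralog of Deup1, had a log2 fold change of 0.31 in the airway class (adjusted p = 0.0301) where Deup1 had 4.32, and 0.53 in radial glia and in the olfactory class. Gmnn, the geminin gene, had -0.15 in the airway class (adjusted p = 0.475) and 0.57 in radial glia (adjusted p = 0.00345). Dynlrb1, the general dynein light chain, had -0.14 (adjusted p = 0.347) against 3.88 for Dynlrb2. Cdc20 was not analysed here.

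Among members, Cdc20b and Dynlrb2 had the highest mean Pearson r over spots, 0.616 over the 4 areas. The lowest mean r of the 45 pairs was 0.0969. That first place rested on the shallow E14.5 replicate 1 area, where the r was 0.415 against 0.033 for Cdc20b and Deup1. In E14.5 replicates 2 to 4, Cdc20b and Deup1 had the higher r, 0.667 against 0.604. The same held in E15.5 replicate 1 (0.799 against 0.751) and in E15.5 replicates 2 to 4 (0.756 against 0.695). The median over pairs was 0.0486 in the shallow E14.5 replicate 1 area and 0.335, 0.578 and 0.586 in the others. It was lowest in the shallowest library. E14.5 replicates 2 to 4, with the 0.335, had the most UMIs in total. Its median per spot was 45058.5 UMIs, against 64051 in E15.5 replicate 1 and 45471.5 in E15.5 replicates 2 to 4. The part of depth was not tested. Among 9761 genes with at least 200 UMIs in every area, none of them a member, those most alike to the summed members were Krt8 at 0.427 and Cldn7 at 0.421, both genes of simple epithelia, the choroid plexus marker Clic6 at 0.407, Tst at 0.406 and Gstm1 at 0.377. Clic6 had an r of 0.189 in E14.5 replicate 1 and 0.522 in E15.5 replicate 1, areas with 0 choroid plexus class spots. Krt8 was the best match for 8 members singly, Cldn7 for Tmem212 (0.235) and Clic6 for Gmnc (0.229). These are means over 4 areas of correlations on log1p UMIs per 10000 across 989 to 2310 spots that share a library, and they describe position in the tissue only.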

How the data were processed

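The authors sectioned formalin-fixed paraffin-embedded heads, captured transcripts on Visium slides and deposited 1 table of raw UMI counts per capture area. Per the file headers these counts were made with Space Ranger, version 1.3.1 where the area held replicate 1 and version 2.0.0 elsewhere. The submitters' processing notes name mm10. No normalisation had been applied, and 0 other columns of values were left unused.

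Only spots over tissue with at least 1 UMI were kept. Barcode names recur between areas (540 to 1388 per pair) because they mark array positions, and every pair of libraries differed beyond sampling noise (chi-square per gene 62.3 to 328). A spot was scored for each marker list by the mean log2 of each marker's CPM plus 50, relative to the mean level of the areas, and joined a class at 0.35 of the mean score of the 20 best spots. This rule and its cuts were set after seeing the data. The members and all lists were chosen with earlier results of these data known.

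Counts were summed per area and class, classes of at least 5 spots were used, and sums were tested with edgeR 4.0.16 in R 4.3.3 (quasi-likelihood test, TMM, filterByExpr, Benjamini-Hochberg over all genes, threshold 0.1), with the area as a block between classes. The code was tested on simulated counts for stage over all tissue, airway and choroid plexus each against the rest, and airway against choroid plexus. At the threshold of 0.1, 19.7%, 23.7%, 18.2% and 21.7% of the calls were of unchanged genes, in that order. Genes changed by 2 on the log2 scale were recovered in 88%, 100%, 60% and 44% of cases. Those changed by 1 were recovered in 24%, 92%, 2% and 6%. The files were read with Python 3.11.15, scipy 1.17.1 and scikit-learn 1.9.0, which also split the sections.

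The named genes were all members, the paralogs Cdc20, Cep63, Gmnn and Dynlrb1, at most the 4 genes with the most UMIs of each list, the 5 genes most correlated with the summed members over spots and the best for each member. Rfx3 and Foxn4 were named after their values were seen. Alternatives were DESeq2 1.42.0, no TMM, no filter, no block, a threshold of 0.05, looser (0.25) and stricter (0.5) class cuts, other distances, thinned counts, sections as samples and leaving out each area. The pathway symbols Dnah7a, Dnai1, Dnai2, Odad1, Odad2, Odad3, Cfap276 and Ift20, the markers Cyp2g1 and Hba-a1, and Cdc20 were not analysed here.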

Additional observations from a re-analysis of the deposited data

Results flagged for a closer look

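Barcodes that the submitters marked as lying off the tissue also held member UMIs. In the E15.5 area of replicates 2 to 4 there were 11 such barcodes with 352936 UMIs, and 103 of these UMIs were of members (292 CPM, against 30.1 CPM in tissue spots outside the airway, olfactory and choroid plexus classes). Among the 103, Deup1 had 22, Cdc20b 20, Foxj1 15, and Dynlrb2 and Lrrc23 13 each. Only 2 of the barcodes, with 55 and 40 member UMIs, accounted for most of this, and each lay 1 spot spacing from an airway class spot. The airway markers summed to 632 CPM over the 11 barcodes. In the E14.5 area of replicates 2 to 4, 8 off-tissue barcodes held 2 member UMIs, both of Foxj1 (9.54 CPM), and the nearest airway class spot was 4.36 spacings away. Off-tissue barcodes entered no other value.

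Deup1 in the olfactory class stood on opposite sides of the level outside it at the 2 stages, by little at E15.5. It stood at 14.3 and 23.1 CPM in the olfactory class of the E14.5 areas and at 4.2 and 7.8 CPM in that of the E15.5 areas, and both E14.5 areas lay above and both E15.5 areas below the level outside the class. Over all tissue of the same areas Deup1 stood at 3.50 and 12.1 CPM at E14.5 and at 5.17 and 10.0 CPM at E15.5. The pooled log2 fold change was 0.47 with an SE of 0.352 (edgeR, adjusted p = 0.367). Neither the difference between the stages nor the lower level at E15.5 alone was tested.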

How the results depend on the processing

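Member calls depended on the processing mainly outside the airway class. Of 1048 member values under alternatives, 988 kept direction and call, 23 lost and 37 gained a call, 0 reversed a call, and 51 values called in neither fit changed sign. Another 9 members in single comparisons had too few counts for the test, and of their 20 values under alternatives 3 were called, all of them Ccdc153 in far oral-palatal mesenchyme. All 10 members stayed called in the airway class under all 11 alternatives run. Members called in the choroid plexus class were 4, and 7 by DESeq2, 7 with a stricter cut and 0 with no area block. In radial glia they were 1, and 4 by DESeq2, 3 with a looser cut, 3 with a stricter cut, 4 without airway and choroid plexus spots and 1 to 4 when an area was left out. In the olfactory class they were 6, and 3 at an adjusted p of 0.05, 2 with no area block and 2 to 8 when an area was left out. Between airway and choroid plexus they were 0, and 1 with no filter, 2 by DESeq2 and 3 with sections as pairs. In far oral-palatal mesenchyme they were 0, and 1 with no filter and 0 to 1 when an area was left out.

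Counts over all genes moved more. Without the area block, which gives a coarser test, 2285 genes were called in the airway class (4555 with it), 0 in choroid plexus (166), 2733 in the olfactory class (5327), 10 between airway and choroid plexus (0), 2901 between airway and olfactory (6053), 2032 in far bone (5936), 1705 in far oral-palatal mesenchyme (5440) and 326 near the airway (2253). Choroid plexus had 99 at 0.05, 314 with no filter, 295 by DESeq2, 90 with a looser and 1006 with a stricter cut. Airway against choroid plexus had 245 with no filter, 249 by DESeq2, 46 with a stricter cut and 953 with sections as pairs. Mesenchyme near the airway had 880 by DESeq2, 528 with a looser and 1278 with a stricter cut. Stage had 37 by DESeq2 over all tissue, and in the airway class (7) it had 0 by DESeq2, 0 with a looser cut and 0 with thinned counts. Leaving out an area gave 0 to 78 genes for stage over all tissue (78 without E15.5 replicate 1), 0 to 10 for stage in the airway class, 2974 to 5778 for the olfactory class, 3936 to 6046 for far bone and 1107 to 1955 near the airway.

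With Spearman in place of Pearson correlation 2 of the 5 most alike genes were shared, Gstm1 and Clic6. Of 33 shares of spots, 31 moved on thinning. With replicate number as a block, 0 genes and 0 members were called between stages over all tissue, and 5 genes and 0 members in the airway class. The replicate 1 areas of the stages share only a number (r = 0.271 between their deviations across 13927 genes, 1 pair), so this pairing is not one of animals. Leaving out an area could not be run where only 2 areas held choroid plexus. The cause of these changes was not tested. Alternatives that left out airway or choroid plexus spots, or paired sections, were chosen after seeing the data. Depth limits E14.5 replicate 1, where the members gave 23 UMIs in the airway class.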

Other observations

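Sections through the eye and skin held little of the members. The retina class stood at 18.5, 20.8, 18.2 and 23.7 summed CPM in the 4 areas, the lens class at 15.3, 17.1 and 15.6 CPM in the 3 areas that had one, and the stratified epithelium class at 0, 12.8, 9.99 and 20.1 CPM, where 3 UMIs in the area at 0 would have been 11.9 CPM. Much of the retina and lens sums was Lrrc23. Its mean was 11.4 CPM in the retina class (10.4 to 12.7 over 4 areas) and 9.55 CPM in the lens class (5.49 to 15.5 over 3 areas). In the muscle and neuron classes its means were 2.87 and 2.10 CPM. The neuron class had the lowest summed mean of all classes, at 8.91 CPM. Ccdc153 had 0 UMIs in the neuron class of 3 areas.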
